A study of Mus musculus with 2 samples.

Results

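The genes described here had very low transcript counts in the pigment epithelium of newborn Myrf mutant mice: Htr3a, Rasgrp3, Ppp1r16b, Fxyd3, Serpine3 and the noncoding RNA A930028N01Rik, which are 6 of the 31053 genes in the count matrices. They were chosen by their measured fall in mutant pigment epithelium in these same libraries, so that fall is described here and is not tested. Single-cell RNA sequencing counted unique molecular identifiers (UMIs, tags that each mark 1 captured transcript) in eye cups at postnatal day 0, with 1 library for each genotype, Myrf fl/fl (control) and Rx>cre Myrf fl/fl (mutant), and 3 pooled eye cups in each library. In both genotypes each copy of Myrf, the gene for the membrane-bound transcription factor MYRF, carries recognition sites for the recombinase cre. The mutants also carry Rx>cre, a transgene active in the early eye field, the tissue that forms both the neural retina and the retinal pigment epithelium (RPE). No cre is named for the control, so loss of Myrf and presence of the transgene cannot be told apart. The eye cups came without cornea, lens and optic nerve. With 1 library per genotype there was no replicate check and no test, and every interval below is a 95% interval that reflects counting error alone and says nothing of differences among animals.

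The RPE is a pigmented cell sheet behind the retina that feeds photoreceptors, recycles the visual pigment and moves ions and water. The 6 genes have no single pathway in common. HTR3A is the core subunit of the serotonin-gated 5-HT3 cation channel. RASGRP3 is an exchange factor that loads GTP onto Ras and Rap proteins in response to diacylglycerol, and PPP1R16B (also called TIMAP) is a regulatory subunit of protein phosphatase 1 best known from endothelial cells. FXYD3 is a small membrane protein of the FXYD family, which tunes the sodium pump (Na,K-ATPase). SERPINE3 belongs by sequence to the same clade of serine protease inhibitors as the plasminogen activator inhibitor, and A930028N01Rik is annotated as an antisense transcript.

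The control matrix held 14305 barcodes and 79017429 UMIs, the mutant matrix 12222 barcodes and 76272867 UMIs, and 59 barcodes occurred in both, 3 of them in the RPE-like cells of each library. After filtering, 12449 control and 10797 mutant cells remained. Clusters were named from marker genes ("RPE-like" and so on), with 117 genes kept out of the clustering, among them the 6 genes, Myrf and the RPE markers. A single cluster of 513 control and 195 mutant cells was RPE-like, with 8 of 10 RPE markers counted. Within it Pmel, the scaffold protein of pigment granules, had 13738 and 10728 CPM (UMIs of the gene per 1000000 UMIs of the class) in control and mutant. The visual cycle gene Rpe65 had no UMI in the mutant. It was not among the 8 counted markers and had fewer than 30 UMIs in the control RPE-like cells too, so no fall is read from it. The control RPE-like cells were shallower, with a median of 2449 UMIs per cell against 10451 in the mutant, and their totals were 3283273 and 2275772 UMIs.

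On the GRCm38 genome the annotation (GENCODE M21) places Htr3a at chr9:48899213-48911099 on the minus strand, Rasgrp3 at chr17:75435896-75529054 on the plus strand and Ppp1r16b at chr2:158665398-158766334 on the plus strand. Fxyd3 lies at chr7:31068172-31076704 on the minus strand and Serpine3 at chr14:62663667-62692243 on the plus strand. A930028N01Rik, at chr19:40297971-40299555 lies on the plus strand. Serpine3 overlaps Ints6 and Fxyd3 overlaps Lgi4, each read from the other strand. Strand use in the counting is not stated in the sources used here, so reads of such pairs may not be fully separable. In RPE-like cells Ints6 had 71 control and 42 mutant UMIs, while Lgi4 had 13 and 1.

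RefSeq start site windows on GRCm38.p6, reaching from 250 bases before to 50 bases after the start, were read for 5 of the 6 genes, in 7 windows. They were searched on both strands for CTGGCAC and CTGGTAC (MYRF), ACAAAG (SOX factors), GGATTA (OTX factors) and CATGTG and CACGTG (MITF), motifs of factors that act in the RPE. A match is a description of the letters, not a binding site. Matches were found in the 2 Rasgrp3 windows and in none of the other 5 windows. The window of the second Rasgrp3 start, chr17:75465288-75465587 on the plus strand, held CTGGCAC 39 bases before the start, a motif present in 5.01% of the 32851 windows of all genes. The window of the first start, chr17:75435655-75435954 on the plus strand, held CATGTG on the minus strand, a motif present in 14.2% of windows. The other motifs were present in 2.24% (CTGGTAC), 18.7% (ACAAAG), 7.06% (GGATTA) and 7.15% (CACGTG) of windows. The sequences of both windows are shown with the matched bases in capitals, followed by the windows of Serpine3 (chr14:62663417-62663716, plus strand) and A930028N01Rik (chr19:40296632-40296931, plus strand), the RPE-restricted genes with an entry, which held no match. The RefSeq start of A930028N01Rik lies upstream of the start in GENCODE.
Rasgrp3, second start: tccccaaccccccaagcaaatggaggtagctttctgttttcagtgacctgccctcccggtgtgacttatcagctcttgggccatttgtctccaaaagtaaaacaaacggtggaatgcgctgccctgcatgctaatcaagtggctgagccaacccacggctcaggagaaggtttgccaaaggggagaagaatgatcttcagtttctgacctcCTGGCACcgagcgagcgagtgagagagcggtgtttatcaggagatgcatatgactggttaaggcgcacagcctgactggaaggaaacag
Rasgrp3, first start: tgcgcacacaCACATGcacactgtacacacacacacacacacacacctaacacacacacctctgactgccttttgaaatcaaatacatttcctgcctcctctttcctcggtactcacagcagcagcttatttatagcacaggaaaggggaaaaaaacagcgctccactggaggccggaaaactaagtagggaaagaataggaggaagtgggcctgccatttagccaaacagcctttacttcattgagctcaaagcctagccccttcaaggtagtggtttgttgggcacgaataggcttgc
Serpine3: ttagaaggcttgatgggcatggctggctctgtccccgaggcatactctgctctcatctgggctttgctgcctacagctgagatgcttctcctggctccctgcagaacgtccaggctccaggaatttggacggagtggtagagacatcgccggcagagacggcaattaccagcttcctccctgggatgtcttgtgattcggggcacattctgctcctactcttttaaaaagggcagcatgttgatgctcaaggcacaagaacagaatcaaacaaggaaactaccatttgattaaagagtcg
A930028N01Rik: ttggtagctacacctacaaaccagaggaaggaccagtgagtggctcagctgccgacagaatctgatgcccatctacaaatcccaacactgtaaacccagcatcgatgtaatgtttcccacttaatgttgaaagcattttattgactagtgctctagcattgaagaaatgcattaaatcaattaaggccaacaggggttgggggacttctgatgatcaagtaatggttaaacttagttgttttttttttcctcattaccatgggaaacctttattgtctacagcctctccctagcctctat

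In the control the 6 genes fell into 2 groups by where their transcripts lay. Htr3a, Serpine3 and A930028N01Rik had their highest level in RPE-like cells among the 14 named classes with at least 30 cells, and the other 3 genes had a higher level in another class. For Htr3a, 468 of 507 control UMIs (92.3%, exact Clopper-Pearson interval 89.6 to 94.5%) were in RPE-like cells. For A930028N01Rik the figure was 460 of 503 (91.5%, 88.7 to 93.7%), close to that of Myrf itself, with 745 of 835 (89.2%, 86.9 to 91.2%). Serpine3 had a lower share, 190 of 249 UMIs (76.3%, 70.5 to 81.5%), and its other 59 UMIs lay in 59 different cells. Of the 190 UMIs 119 lay in 2 cells, and without these 71 remained in RPE-like cells against the 59 elsewhere. The interval takes UMIs as independent and is too narrow for this gene.

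Rasgrp3, Ppp1r16b and Fxyd3 were shared with other cell types. Rasgrp3 stood at 168.7 CPM in control RPE-like cells, at 229 CPM (exact Poisson interval 191 to 272) in melanocyte-like cells, the other pigment cells of the eye, and at 122 CPM (111 to 134.5) in endothelial-like cells. RPE-like cells held 45.4% of its control UMIs. Ppp1r16b was highest in endothelial-like cells, at 94.99 CPM (84.8 to 106), followed by melanocyte-like cells at 48.0 CPM (31.6 to 69.8) and RPE-like cells at 42.0 CPM (35.3 to 49.7). The melanocyte-like and RPE-like levels did not differ beyond their intervals, and RPE-like cells held 25.1% of its UMIs. Fxyd3 was a surface epithelium gene, at 955 CPM (899 to 1013) in that class and 46.9 CPM (39.8 to 54.9) in RPE-like cells, which held 10.3% of its UMIs. It was also found at 10.7 CPM (3.91 to 23.2) in melanocyte-like cells, 8.14 CPM in neurogenic cells and 4.70 CPM in retinal progenitors. In 21 glia-like cells, too few to be ranked, it was at 44.1 CPM (14.3 to 102.9) from 5 UMIs, and the 5 glia markers, Sox10 among them, summed to 99.3 CPM in control and 11.4 CPM in mutant RPE-like cells.

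**Figure D1:**
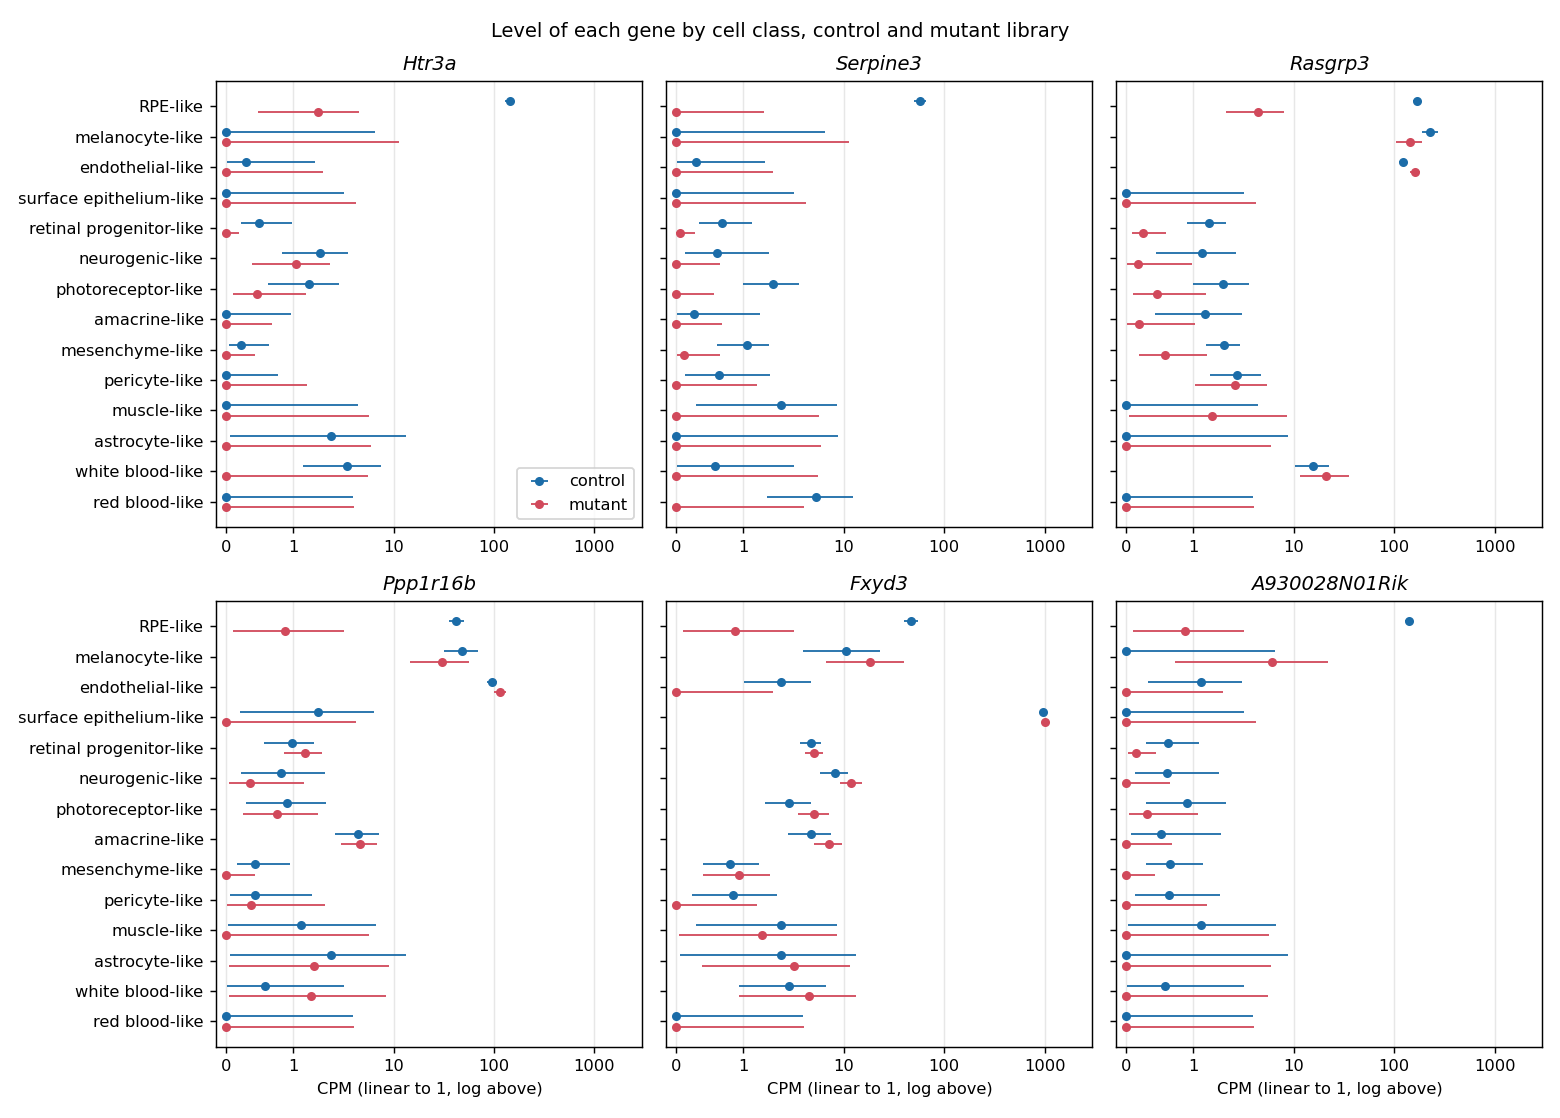
CPM of each of the 6 genes (x axis, linear up to 1 and logarithmic above) in 14 named cell classes (y axis), with control in blue and mutant in red. Points are the summed level of the class and bars exact 95% Poisson intervals, and in every panel the mutant RPE-like point lies far to the left of the control point, while the points of the endothelial-like class for Rasgrp3 and Ppp1r16b and of surface epithelium for Fxyd3 lie near each other.

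Transcripts of another cell type carried over into RPE-like droplets were looked for through that type's markers. The 6 endothelial markers summed to 6975 CPM in control endothelial-like cells and to 63.7 CPM in control RPE-like cells, which is 0.913% of the former, whereas Ppp1r16b in RPE-like cells stood at 44.2% and Rasgrp3 at 138% of their endothelial-like levels. Among the 375 control RPE-like cells with no UMI of any endothelial marker, Ppp1r16b was at 45.6 CPM and Rasgrp3 at 163 CPM. The 6 melanocyte markers summed to 2121 CPM in control RPE-like cells, 30.8% of their melanocyte-like level, with Mlana at 4027 UMIs and Gpnmb at 2078, genes that RPE also uses. Pax3, the marker among them that RPE lacks, was counted 2 times in control RPE-like cells and 0 times in mutant ones. The 6 surface epithelium markers summed to 303 CPM in control RPE-like cells, 1.44% of their level in surface epithelium, against 4.91% for Fxyd3. Most of this was Krt8, at 281 CPM (923 UMIs) in control and 435 CPM (989 UMIs) in mutant RPE-like cells, and without it, a choice made after its values were seen, the other 5 summed to 22.2 CPM (0.106%). Fxyd3 was at 24.7 CPM in the 257 control RPE-like cells with none of the 6 markers and at 53.2 CPM in the other 256, and at 46.2 CPM in the 471 cells with none of the 5. Control RPE-like cells also held more mesenchyme marker transcripts (1667 CPM for 6 markers, against 91.0 CPM in the mutant). In control mesenchyme-like cells Serpine3 stood at 1.09 CPM, Rasgrp3 at 2.03 CPM and Fxyd3 at 0.797 CPM. The part of RNA from other cell types in the RPE-like counts was not tested.

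In the mutant RPE-like cells little of the 6 genes was left. Htr3a, the serotonin channel subunit, went from 468 control UMIs (142.5 CPM, 129.9 to 156.1) to 4 mutant UMIs (1.76 CPM, 0.479 to 4.50), an 81.1-fold lower level with an interval from 31.5 to 298.9. Rasgrp3 had 554 UMIs (168.7 CPM, 155 to 183) and 10 UMIs (4.39 CPM, 2.11 to 8.08), a 38.4-fold lower level (20.7 to 80.5). It kept the most transcripts of the 6 genes.

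Ppp1r16b, the phosphatase subunit, had 138 control and 2 mutant UMIs (0.879 CPM, 0.106 to 3.175), a 47.8-fold lower level (12.99 to 398.9). Fxyd3 had 154 and 2 UMIs, a 53.4-fold lower level (14.5 to 444.7). In cells gated on at least 3 RPE markers and no Pax3 instead of by cluster (947 control and 398 mutant), the log2 ratios were -3.28 for Ppp1r16b, -3.11 for Fxyd3 and -3.72 for Rasgrp3, against -4.52, -4.67 and -4.98 in the cluster, and those of the first pair were close to 8-fold. A930028N01Rik had 460 UMIs (140 CPM, 128 to 153.5) and 2 UMIs, both in the same mutant cell, a 159-fold lower level (43.9 to 1320). For Serpine3 there were 190 UMIs (57.9 CPM, 49.9 to 66.7) in the control and none in the mutant, where 3 counts would be 1.32 CPM. Its level was thus at least 43.9-fold lower, with the 3 counts taken over the group.

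All 6 genes were at least 8-fold lower, as were 0.654% of the 9019 genes with at least 30 UMIs in RPE-like cells of either library. The median log2 ratio of mutant to control CPM, each raised by 1 CPM, was -5.34 over the 6 genes and -0.03 over all 9019. Since this contrast chose the genes, nothing is read from that difference. Among 392 genes with at least 8 times the level in control RPE-like cells that they had in other control cells, 6.12% were at least 8-fold lower, and their median log2 ratio was -0.38. That set held 4 of the 6 genes, all but Ppp1r16b and Fxyd3. Ranked from the lowest log2 ratio up, A930028N01Rik was 4, Serpine3 was 6, Htr3a was 8, Rasgrp3 was 16, Fxyd3 was 18 and Ppp1r16b was 21 of 9019. Without the 2 control cells with most Serpine3, that gene had a log2 ratio of -4.51 and was 21 of 8993, behind the other 5 genes. Of the 16 lowest genes 7 were crystallins, proteins of the lens. The 6 lens markers summed to 403 CPM in control cells outside the RPE-like class and 45.4 CPM in mutant ones, and inside it to 1246 and 957.9 CPM. The mutant sum inside the class came from 4 of the markers. The crystallins Cryaa (197 control and 0 mutant UMIs) and Cryba1 (166 and 0) had none there. The part of lens RNA in the lowest ranks was not tested.

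Other genes of the RPE gave a scale for these differences. Myrf itself had 745 UMIs (227 CPM) in control and 61 UMIs (26.8 CPM, 20.5 to 34.4) in mutant RPE-like cells, an 8.47-fold lower level (6.51 to 11.2). The part of Myrf that cre removes is not stated in the sources used here, and 3′ tags that lie outside it would not report on the deletion. The retinal G protein-coupled receptor gene Rgr (log2 ratio -7.21) and the uroplakin gene Upk3b (-6.33) had lower log2 ratios than any of the 6 with 1 CPM added. Without the added CPM the fold difference of Upk3b (327 and 3.08 CPM) was smaller than that of A930028N01Rik. Their mutant counts were 7 and 2 UMIs, and their intervals overlapped (-8.05 to -5.685 and -10.37 to -5.456). The transcription factor gene Sox10 (-3.78) was less low than all 6 genes. Tmem98, whose protein binds MYRF, had a log2 ratio of -1.74. The pigment and identity genes were closer to 0, at -0.51 for Tyrp1, -0.36 for Pmel, -0.29 for Otx2 and -0.09 for Mitf.

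Other cell types with many transcripts of these genes stayed closer to their control level. In endothelial-like cells Rasgrp3 was at 122 and 160 CPM (142 to 179) in control and mutant, and Ppp1r16b at 94.99 and 115 CPM (100 to 132). Both log2 ratios lay slightly above 0, at 0.39 (0.17 to 0.61) and 0.28 (0.02 to 0.53). In melanocyte-like cells, of which there were 30 and 18, Rasgrp3 was lower in the mutant at 142 against 229 CPM, with a log2 ratio of -0.68 (-1.20 to -0.19), and for Ppp1r16b the interval of -1.87 to 0.43 included 0. Fxyd3 in surface epithelium was at 955 and 1016 CPM (951 to 1085), with a log2 ratio of 0.09 (-0.04 to 0.22). The difference between RPE-like cells and these classes was not tested, as there was 1 library each.

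Outside the RPE-like class the scattered transcripts of the RPE-restricted genes were also fewer in the mutant library. Htr3a had 39 such control UMIs (0.595 CPM) and 9 mutant ones (0.145 CPM), Serpine3 had 59 (0.900 CPM) and 2 (0.032 CPM), and A930028N01Rik had 43 (0.656 CPM) and 10 (0.161 CPM). In retinal progenitor-like cells, which served as background and had median depths of 4902 and 4976 UMIs, Serpine3 had 11 control UMIs against 1. The part of free RNA in the cell suspension in these low levels was not tested. By contrast Fxyd3 in retinal progenitors was 4.70 CPM (3.70 to 5.88) and 5.08 CPM (4.14 to 6.18) in the 2 libraries. Mutant RPE-like cells, at 0.879 CPM (0.106 to 3.175), held less Fxyd3 than these progenitors. The remaining Htr3a in mutant RPE-like cells (0.479 to 4.50 CPM) lay above its level in mutant progenitors, which held 0 UMIs (upper limit 0.186 CPM). It overlapped the Htr3a level in mutant neurogenic cells, 1.05 CPM (0.387 to 2.30), and photoreceptor-like cells, 0.459 CPM (0.095 to 1.34). The remaining Rasgrp3 (2.11 to 8.08 CPM) lay above its mutant progenitor level of 0.252 CPM (0.082 to 0.587) and overlapped that of pericyte-like cells, 2.62 CPM (1.05 to 5.39).

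The low mutant counts were also present among the deepest cells. Among RPE-like cells with over 8000 UMIs there were 151 control cells (2510155 UMIs) and 110 mutant cells (2048287 UMIs). There Htr3a had 379 and 3 UMIs, Rasgrp3 454 and 10, Ppp1r16b 111 and 2, Fxyd3 128 and 1, A930028N01Rik 365 and 2, and Serpine3 137 and 0. The corresponding levels were 103-fold lower (35.0 to 502) for Htr3a, 37.05-fold (19.96 to 77.8) for Rasgrp3, 45.3-fold (12.3 to 379) for Ppp1r16b, 104.4-fold (18.4 to 4157) for Fxyd3 and 149-fold (40.9 to 1234) for A930028N01Rik, and at least 37.3-fold for Serpine3. For Serpine3 119 of the 137 UMIs were in 2 cells, and without these 18 UMIs (7.26 CPM) remained, which is at least 4.96-fold above the mutant. In the 45 mutant cells with up to 2000 UMIs the class held 44078 UMIs, where 3 counts are 68.1 CPM, so falls of Ppp1r16b, at 20.6 CPM in control cells of that depth, and Fxyd3, at 37.0 CPM, were not detectable there. Control levels were not steady with depth. Rasgrp3 was at 80.5 CPM (50.4 to 121.8) in control cells of 4000 to 8000 UMIs against 180.9 CPM (164.6 to 198) over 8000, and Htr3a at 81.8 CPM (50.6 to 125) in those of 2000 to 4000 against 151 CPM (136 to 167). Serpine3 was at 94.6, 109, 7.32 and 54.6 CPM from the shallowest to the deepest cells.

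**Figure D2:**
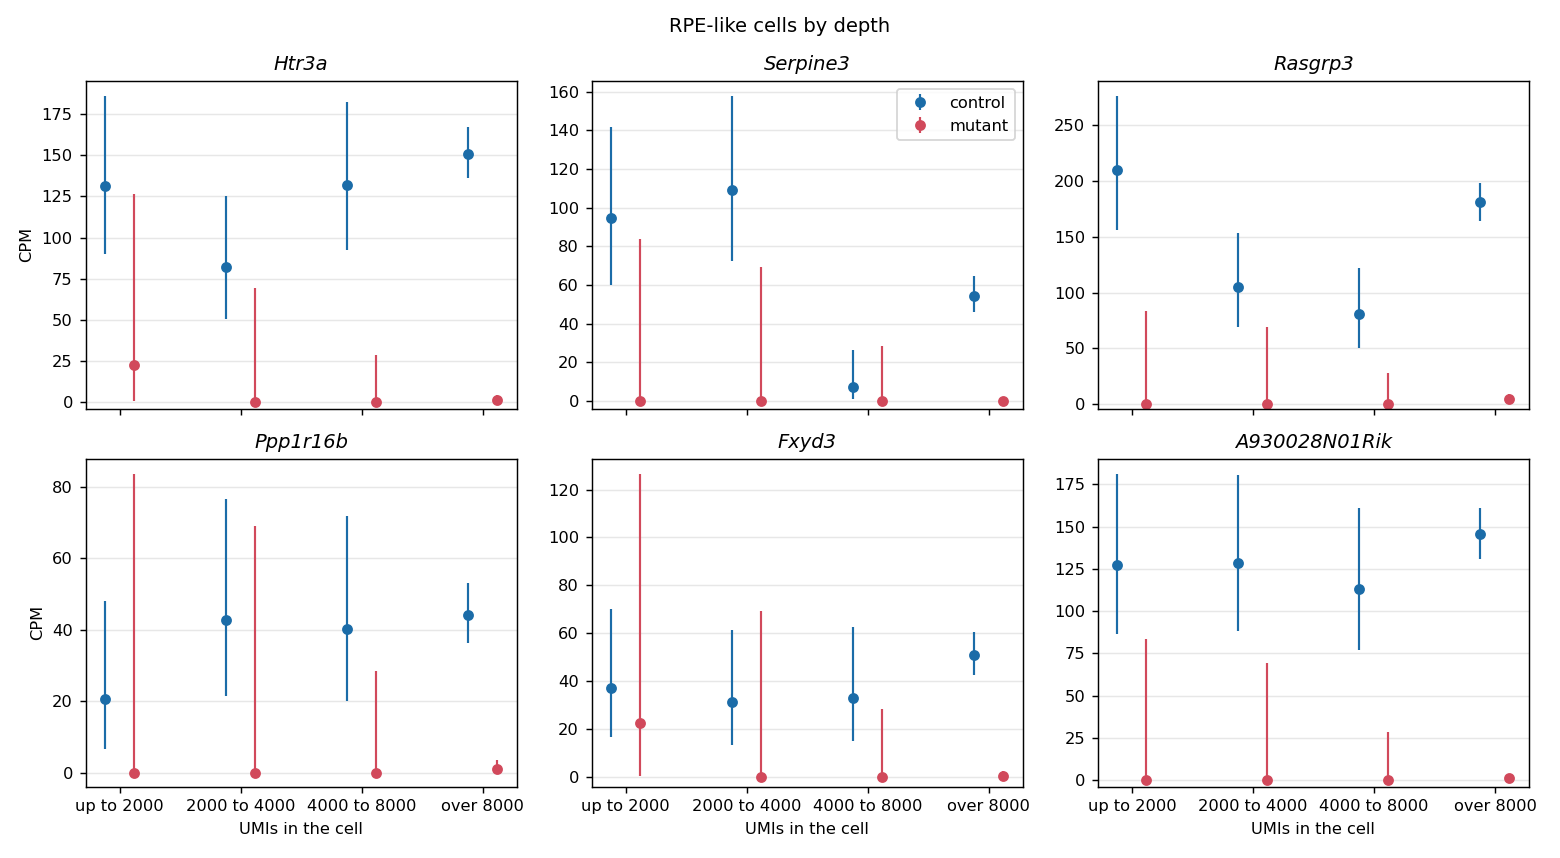
CPM (y axis) of each gene in RPE-like cells split by the number of UMIs in the cell (x axis), control in blue and mutant in red. Bars are exact 95% Poisson intervals, which are wide for the shallow mutant cells and narrow over 8000 UMIs, where every mutant level lies below 5 CPM and every control level above 40 CPM.

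The pools held cells with Xist and cells with Y-linked transcripts, so RPE-like cells were split by these. Where Xist but no Y-linked transcript was found (81 control and 76 mutant cells) Htr3a had 154 and 1 UMIs, Rasgrp3 164 and 9, A930028N01Rik 150 and 0, Ppp1r16b 49 and 1, and Fxyd3 39 and 1. In cells with a Y-linked UMI and no Xist (135 and 34 cells) the UMIs were 188 and 2, 233 and 1, 176 and 0, 49 and 1, and 74 and 0 in the same order. These 5 genes were thus present in control cells of both kinds and low in mutant cells of both kinds.

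Serpine3 transcripts lay in few control cells. Control cells with Xist held 2 Serpine3 UMIs (2.22 CPM, 0.269 to 8.01), and those with a Y-linked UMI held 112 (78.7 CPM, 64.8 to 94.7). The mutant cells with Xist held none, where 3 counts are 2.14 CPM, so no fall could be seen in cells with Xist. A single control cell held 88 of the 190 Serpine3 UMIs, out of 11890 UMIs in all, and a second held 31, and each of them also had UMIs of Rasgrp3, A930028N01Rik, Upk3b and Myrf. The 5 highest cells held 76.8% of the Serpine3 UMIs but 1.74% of all UMIs of the class. For the other 5 genes the 5 highest cells held between 9.75% (Rasgrp3) and 15.6% (Fxyd3). Without the 2 highest cells, 71 Serpine3 UMIs (21.8 CPM) remained, which is at least 16.6-fold above the mutant, and the cells with a Y-linked UMI still held 24. Among the 513 control RPE-like cells 35 (6.82%) held Serpine3, whereas the other genes were found in 88 (Ppp1r16b) to 198 (Rasgrp3) cells.

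**Figure D3:**
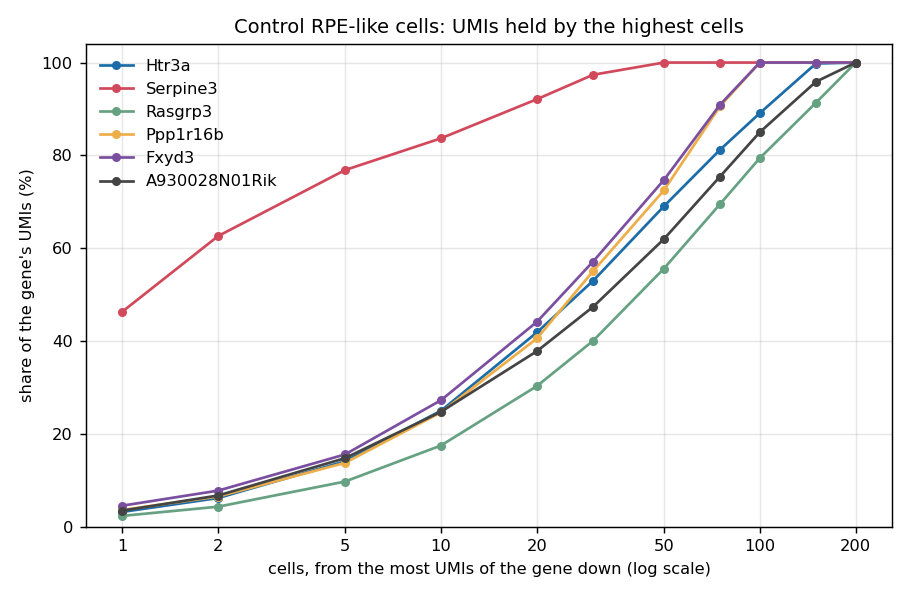
Cumulative share of each gene's UMIs in control RPE-like cells (y axis, percent) against the number of cells, ranked from the most UMIs of that gene down (x axis, log scale). The highest cell holds 46.3% of Serpine3 UMIs and 4.55% or less for each of the other genes, and the 2 highest hold 62.6% of Serpine3.

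To compare shares of cells across classes, each cell was thinned to 1000 UMIs at random, leaving 408 of 513 control and 167 of 195 mutant RPE-like cells. Rasgrp3 was then present in 12.5% (9.45 to 16.1%) of the control cells, A930028N01Rik in 10.8%, Htr3a in 9.07%, Serpine3 in 4.66%, Fxyd3 in 4.41% and Ppp1r16b in 1.72%. Without thinning these shares were 38.6%, 32.9%, 29.4%, 6.82%, 17.3% and 17.2%. In control retinal progenitor-like cells, used as background, the thinned shares were between 0.033% (Htr3a and Serpine3) and 0.456% (Fxyd3). In the mutant RPE-like cells 1 of 167 thinned cells held Fxyd3 and none held any of the other 5 genes, where 3 cells would be 1.80%. For Ppp1r16b that limit is above the control share, so no loss was detectable at this depth.

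At 4000 UMIs per cell (198 control and 132 mutant RPE-like cells) several of the 6 genes were often found in the same control cell. At least 1 of them was found in 140 control cells (70.7%), at least 2 in 80 (40.4%), and all 6 in 1 cell. Htr3a and A930028N01Rik shared 35 cells, where 22.7 would be shared if the 2 were placed independently. Htr3a and Rasgrp3 shared 39 cells (28.9 if independent), and Htr3a and Ppp1r16b shared 14 (6.97). Others were nearer to independence, such as Htr3a and Serpine3 with 2 cells (1.74) and Serpine3 and A930028N01Rik with 2 (1.64). Ppp1r16b and Fxyd3 shared 5 (3.33), and pairs with so few shared cells say little. In the mutant, 3 of 132 cells held 1 of the genes and none held 2 or more. In the cells with over 8000 UMIs, not thinned, 117 of 151 control cells (77.5%) held at least 2 of the genes against 0 of 110 in the mutant, where 3 cells would be 2.73%.

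**Figure D4:**
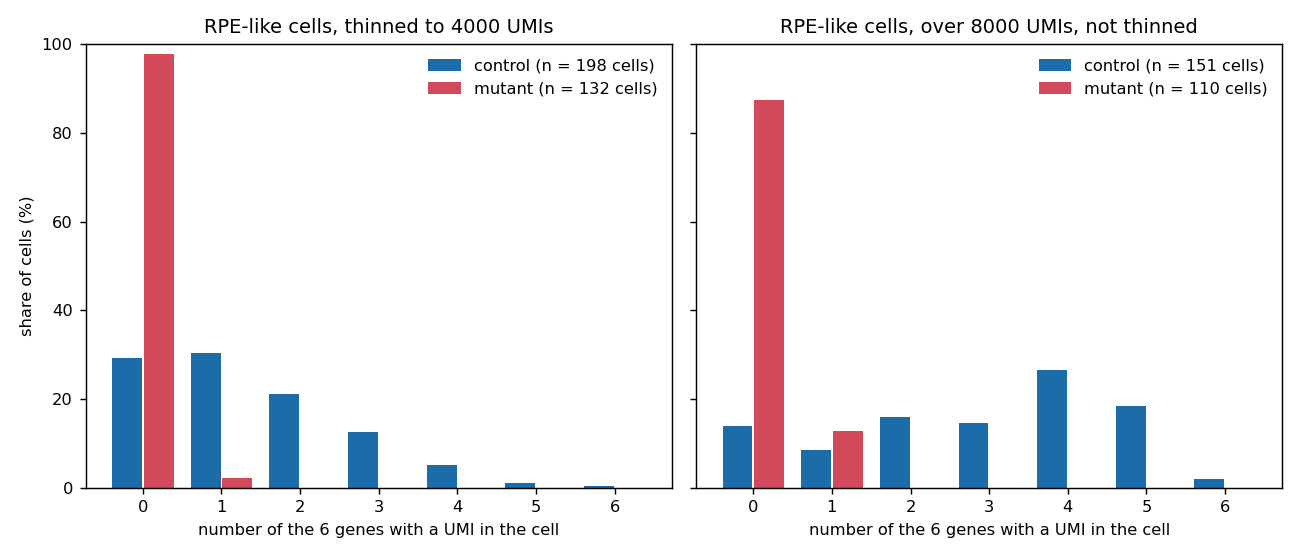
Share of RPE-like cells (y axis, percent) by the number of the 6 genes with a UMI (x axis), for cells thinned to 4000 UMIs on the left and unthinned cells over 8000 UMIs on the right, control in blue and mutant in red. The mutant bars stop at 1 gene in both panels, while control cells reach all 6.

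Co-detection with Myrf was read in the 198 control cells thinned to 4000 UMIs, of which 111 held a Myrf UMI and 87 did not. Each of the 6 genes was found more often with Myrf than without. Rasgrp3 was found in 52.3% (42.6 to 61.8%) of cells with Myrf and 28.7% (19.5 to 39.4%) of those without, and these intervals did not overlap. Htr3a was found in 41.4% (32.2 to 51.2%) and 26.4% (17.6 to 37.0%), and A930028N01Rik in 39.6% (30.5 to 49.4%) and 24.1% (15.6 to 34.5%). Fxyd3 was found in 19.8% and 12.6%, Ppp1r16b in 11.7% and 8.05%, and Serpine3 in 4 and 1 cells, with overlapping intervals for these 5 genes. Cells with a gene mostly held Myrf as well, from 65.0% of Ppp1r16b cells to 69.9% of Rasgrp3 cells and 4 of 5 Serpine3 cells, where 111 of all 198 cells did.

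Other RPE genes were also found more often with Myrf. Upk3b (69.4% with Myrf, 40.2% without) and the pigment gene Tyrp1 (98.2% and 81.6%) went the same way, while Mitf was found in 52.3% and 47.1%. Some RPE-like cells carried genes of the ciliary margin, the rim where the retina meets the iris: 21 control and 6 mutant cells had UMIs of at least 2 of Wfdc1, Zic1, Optc, Crhbp and Col9a1, a set named after seeing the cluster. In those 21 control cells Htr3a was at 4.38 CPM (0.111 to 24.4) and Myrf at 78.9 CPM, against 152.9 and 238 CPM in the rest of the cluster, and Fxyd3 at 39.5 against 47.5 CPM. Without them the direction held for all 6 genes and the distances shrank, for example to 53.2% and 33.3% for Rasgrp3 and 42.2% and 30.6% for Htr3a, with overlapping intervals. At 1000 UMIs per cell, where 53 of 408 cells held Myrf, 3 of the 6 genes were found more often with Myrf.

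**Figure D5:**
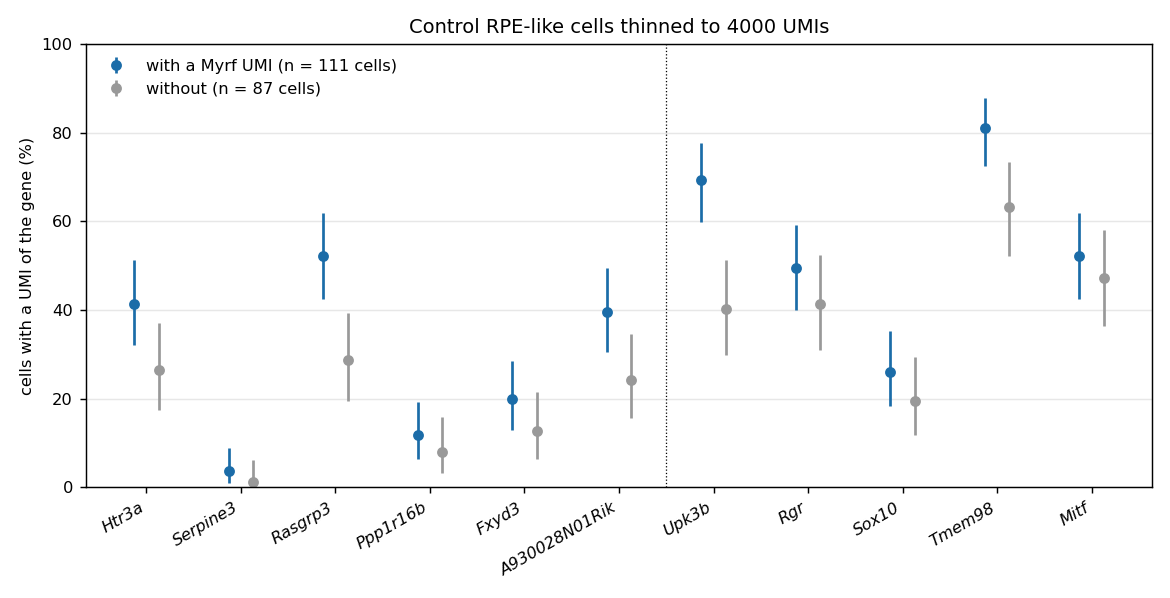
Share of control RPE-like cells, thinned to 4000 UMIs, with a UMI of each gene (y axis, percent), for cells with a Myrf UMI in blue and without in grey. Bars are exact 95% Clopper-Pearson intervals, the 6 genes stand left of the dotted line and comparison genes right of it, and all blue points lie above their grey ones.

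What remained in the mutant RPE-like cells was 20 UMIs in 16 of 195 cells (8.21%, 4.76 to 12.98%), against 1964 UMIs in 317 of 513 control cells (61.8%, 57.4 to 66.02%). Each of the 16 cells held 1 of the 6 genes and none held 2. Rasgrp3 made up 10 of the 20 UMIs, in 7 cells, with 3 and 2 UMIs in the highest of them. Of these 7 cells 4 had no UMI of an endothelial marker, and 9 of the 10 UMIs were in cells with Xist. The cells with a remaining transcript were deep, with a median of 16984 UMIs against 9386 in the mutant cells without. Myrf was found in 6 of the 16 cells, Rgr in 2, Sox10 in 1 and Upk3b in none, and Tmem98 in 14. Over all 195 mutant RPE-like cells Myrf was found in 42, Rgr in 12, Sox10 in 7, Upk3b in 2 and Tmem98 in 123. Of the 42 mutant RPE-like cells with Myrf, 14.3% held 1 of the 6 genes, against 8.21% of all 195, and these cells were not matched for depth.

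The relatives of the 6 genes were taken from lists that name each family, and many had too few UMIs to be measured. A gene was counted as lower or higher where its log2 ratio, with 1 CPM added, was past 2-fold with an interval apart from 0, which held for 5.02% (lower) and 1.95% (higher) of the 9019 genes. Of 20 other genes of serotonin signalling 2 had at least 30 UMIs, and neither passed: Ddc, which makes serotonin and dopamine from their precursors, had a log2 ratio of 0.61 (0.27 to 0.99) and Maoa, which breaks them down, -0.12. The serotonin receptor gene Htr2c, named after its values were seen, was under that minimum with 0 control and 23 mutant UMIs. Also under it, and named in the same way, were Maob (27 and 4 UMIs), which degrades amines, and Plat (28 and 4 UMIs), the tissue plasminogen activator gene of the next list. Of 17 other serpins and plasminogen activators 4 were measured and none passed, among them Serpinf1, which encodes PEDF, at -0.53 (-0.92 to -0.16).

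Of 20 other genes of Ras and Rap exchange 14 were measured, and 1 was lower: Rap1gap, which switches Rap1 off, had 90 and 26 UMIs and a log2 ratio of -1.19 (-1.95 to -0.62). The Ras exchange factors Sos1 (-0.14) and Sos2 (-0.08) had intervals that included 0. Of 13 other protein phosphatase 1 genes 9 were measured and 1 was higher, the inhibitor gene Ppp1r14a with 16 and 48 UMIs, at 1.91 (1.27 to 3.03). Ppp1r16a, the closest relative of Ppp1r16b, had 68 and 40 UMIs, at -0.22 (-0.84 to 0.35). Of 14 other FXYD and sodium pump genes 7 were measured and 1 was lower, Fxyd1 with 355 and 113 UMIs, at -1.11 (-1.44 to -0.81). Fxyd6, with 66 and 92 UMIs, was 2.01-fold higher in plain CPM, but its log2 ratio with 1 CPM added was 0.97 (0.54 to 1.49), just under the rule. The pump subunit Atp1b1 (0.09, -0.03 to 0.21) stayed close to 0.

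Genes beside the 6 on the chromosome could be measured for 4 of the 6. Within 100 kb there were 23 protein-coding genes, 8 of them with at least 30 UMIs in RPE-like cells, and 4 of these 8 were lower by the 2-fold rule, against 5.02% of all genes, but none was 8-fold lower. Fxyd1 (10973 bases from Fxyd3) and Fam187b, at -1.82 (-3.52 to -0.96), lie beside Fxyd3. Pdlim1 lies beside A930028N01Rik, with 189 and 39 UMIs and a log2 ratio of -1.69 (-2.28 to -1.24). Ltbp1 lies beside Rasgrp3, at -1.03 (-1.72 to -0.49). Ints6, Lsr and Gramd1a were at -0.22, -0.37 and -0.59. The gene next to Htr3a that encodes its channel partner, Htr3b, had 1 control and 0 mutant UMIs, and no neighbour of Htr3a or Ppp1r16b reached 30 UMIs.

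Genes whose levels over the 14 control classes were most like each of the 6 were found by Pearson r of log2(CPM + 1), as a description over classes of 1 library. For Htr3a the closest of 7270 candidates was Myrf (r = 0.96), then Slc24a1 (0.96), Gjb1 (0.96), Tmem72 (0.95) and Gsx2 (0.95). Their log2 ratios in RPE-like cells ranged widely, with Gjb1 at 162 and 0 UMIs, Slc24a1 at -1.89, Gsx2 at -0.49 and Tmem72 at 0.11. For A930028N01Rik they included Klk4 (0.98), Ak8 (0.97), Mfrp (0.97) and Tmem72 (0.97), of which Klk4, a secreted protease, had 767 and 735 UMIs and a log2 ratio of 0.47 (0.32 to 0.62). An RPE-restricted pattern in the control thus went with a large fall in some genes and none in others.

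For Serpine3 the closest were Paqr9 (0.90), Rgr (0.90), Asic3 (0.88), Ak8 (0.88) and Cldn2 (0.88). For Rasgrp3 they were Hps3 (0.90), Sptlc2 (0.89), Tmem268 (0.89), Rab27a (0.89) and Tmc6 (0.88), of which Hps3 and Rab27a act in pigment granule formation and transport and were at -1.62 (-2.48 to -1.03) and -0.74 (-0.99 to -0.51). For Ppp1r16b they were Wipf3 (0.91), Rasgrp3 (0.86), Slc7a5 (0.82), Fam174b (0.82) and Eogt (0.82), with Slc7a5, an amino acid carrier, at -1.57 (-1.83 to -1.35). For Fxyd3 they were Ccdc51 (0.95), Rab11fip1 (0.91), Rab17 (0.90), Upk3bl (0.90) and Hsdl2 (0.90), with Rab17 at -1.54 (-2.63 to -0.84) and Upk3bl at -0.52 (-0.70 to -0.35).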

How the data were processed

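The authors deposited raw UMI counts per gene and barcode from 10x 3′ libraries. The processing notes name Cell Ranger 7.1.0, Seurat 4.1.1 and mm10, while the matrix headers give software version 3.1.0. Barcodes with at least 200 genes and at most 15% mitochondrial UMIs were kept. The study's upper limit of 2000 UMIs was an alternative only, as 80.2% of control barcodes lay above it. Scrublet (scanpy 1.11.5) by its own threshold marked 0% of control barcodes, so in both libraries the highest scores were removed at 0.8% per 1000 cells (1682 and 1230 barcodes). Seurat 5.3.0 in R 4.3.3 integrated and clustered the cells (2000 variable genes, 30 components, resolution 1). Classes were rebuilt from markers, and 4 of 34 clusters stayed unnamed. A marker counted where at least 10% of a cluster held it at 2 times the mean elsewhere, and a name needed 3 markers and no more markers of its list missing than counted.

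UMIs were summed per class and library and scaled to CPM. Intervals of log2 ratios belong to the unraised ratio of counts (exact, conditional on the sum). A count of 0 was given a floor of 3 counts over the group. Repeated PCR copies and differences among animals are not covered. The ratio intervals and the thinning were tested on simulated Poisson counts, which hold no spread among cells. Doublet removal, clustering, class naming and co-detection were not tested in this way. The genes, families and lists were chosen with earlier results of these data known. Besides the 6 genes and Myrf, the text names 8 comparison genes, the 5 genes most alike in class pattern, family genes past 2-fold and neighbours within 100 kb with at least 30 UMIs, and a few further genes as examples after their values were seen. A few genes that meet these rules are not reported here.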

Additional observations from a re-analysis of the deposited data

How the results depend on the processing

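The log2 ratio kept its sign for all 6 genes under each of 16 other settings, but at 3 of them a fall was not detectable for every gene: Serpine3 in cells with Xist, Ppp1r16b and Fxyd3 below 2000 UMIs, and Ppp1r16b at 1000 UMIs. The count of genes at least 8-fold lower was 6 under 12 of them. It was 5 in cells with Xist, also with a mutant count of 0 taken as 3 counts. It was 5 with cells thinned to 1000 UMIs and 4 below 2000 UMIs, where 5 and 4 genes had 0 mutant UMIs, and with 3 counts in place of 0 none of the 6 genes reached 8-fold at either depth (3 counts are 18.0 and 68.1 CPM). It was 3 with 10 CPM added, which by construction shrinks ratios of genes at this level. The log2 ratio of the summed UMIs was -5.94. It was -3.75 below 2000 UMIs, where 45 mutant cells were left, -4.61 in 947 control and 398 mutant cells gated on at least 3 RPE markers and no Pax3 (-3.11 for Fxyd3 to -5.46 for Htr3a), and -5.02 with 10 CPM added. It was between -5.64 and -6.27 under the others. Fxyd3 had the smallest ratio, -0.68 below 2000 UMIs, where 1 mutant UMI was counted, and Serpine3 was at -1.69 in cells with Xist and -4.51 without its 2 highest cells. Scaling by the median ratio of 5634 genes moved all ratios by 0.04. The count of genes highest in RPE-like cells was 3 under the 5 settings tried for it (doublets kept, resolution 0.5, merged libraries, 1000 UMIs and a mitochondrial limit of 5%). Genes found more often with Myrf numbered 6, but 3 with cells thinned to 1000 UMIs and 5 unthinned or with doublets kept. Mutant cells with any of the 6 genes numbered 16, but 1 of 167 at 1000 UMIs, 32 of 398 in the gated cells and 24 with doublets kept. Leaving out ciliary margin gene cells or the 2 cells with most Serpine3 was decided after seeing the data, and changed no count. No paired analysis was possible because each genotype had 1 library.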
